A study of Mus musculus with 12 samples.

Results

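A set of 10 mouse genes whose translational efficiency (TE) differed between naive embryonic stem cells, or ESCs, and the epiblast-like cells derived from them, or EpiLCs, was examined in ribosome profiling data. They were Ptges3, Lgals4, Rbms2, Lsm6, Bri3 and Kirrel2, with a higher TE in EpiLCs, and Thra, Gemin7, Fam136a and Npr1, with a lower TE. These 10 of the 22462 genes in the counts table were chosen by their change of TE, the ratio of ribosome protected fragments (RPFs) to total RNA, in these same libraries. All 10 were kept by the filter on low levels (3 CPM or more in 3 libraries or more, where CPM divides a count by the total of its library and multiplies by a constant), and were among the 30 of 11750 genes so kept that passed both limits for TE, an adjusted p below 0.05 and an absolute log2 change above 1. That is 0.255% of tested genes, with 0.136% higher and 0.119% lower in EpiLCs. Their total RNA, RPF and TE changes are therefore given as a description with no test, and the counts over these genes support nothing beyond the choice itself.

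ESCs carried miR290-mCherry and miR302-GFP reporters in the V6.5 line and were kept in serum with LIF and the 2i inhibitors PD0325901 and CHIR99021, which hold the naive state. EpiLCs, which model the early post-implantation epiblast, came from the same ESCs and were collected about 56 hours after LIF and 2i were taken away. No gene was deleted in either cell type, and all cells came from a single line. Each cell type gave 3 RPF and 3 total RNA libraries, 12 in all, which the study calls biological replicates. The sources do not say how they were grown apart, and part of the spread between them may be technical.

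In ribosome profiling, mRNA that is not covered by a ribosome is digested, and the protected pieces are sequenced beside the whole RNA. An mRNA that carries more ribosomes per copy gives more RPFs for the same total RNA, and so a higher TE. TE can differ through the rate at which ribosomes start, through how fast they move, or through the choice of transcript isoform, and a ratio of read counts does not separate these. In bulk libraries, fewer cells that express a gene and less RNA per cell cannot be told apart.

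The libraries held 2681439 to 14655015 counts, and 3 counts equalled 1.12 CPM in the shallowest library, an EpiLC RPF library. The labelled cell types matched their markers. The summed total RNA of 6 naive markers was 1607 to 1809 CPM in ESCs and 50.1 to 96.1 CPM in EpiLCs, and that of 5 formative and primed markers was 109 to 201 CPM in ESCs and 1144 to 1222 CPM in EpiLCs. Summed endoderm, mesoderm and trophoblast markers were between 2.92 and 18.2 CPM in all libraries. The sum of 3 neural markers was 9.55 to 14.4 CPM in ESC and 19.2 to 22.2 CPM in EpiLC total RNA, and 10.04 to 13.8 and 20.6 to 28.3 CPM in RPF, without overlap and with Neurog2 at 3 counts or fewer in every library. A list of 6 fibroblast genes summed to 5.96 to 6.87 CPM in ESC RPF and 30.9 to 34.5 CPM in EpiLC RPF, and to 1.98 to 2.26 and 8.98 to 12.1 CPM in total RNA. Of its genes, Lum and Postn had 3 counts or fewer in every library, and Col3a1 did in every RPF library. The part of these markers in the values below was not tested.

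The bases around the start codon are shown for the 3 genes with the highest TE changes, the 3 with the lowest and Thra, since this stretch is where a scanning ribosome begins. Capitals mark the start codon, with coordinates on GRCm38 (the assembly of mm10) and transcripts from Gencode M21.
Ptges3 (plus strand, chr10:128059276-128068681, spanning an intron): ccgttcaccATGcagcctgct
Lgals4 (plus strand, chr7:28834173-28834193): actctcaagATGgcctatgtt
Rbms2 (minus strand, chr10:128176404-128176424): aaagaaaaaATGctgctatca
Npr1 (minus strand, chr3:90465492-90465512): gctgaggccATGccgggttcc
Fam136a (plus strand, chr6:86365724-86365744): agggtcgccATGgcggaggtg
Gemin7 (minus strand, chr7:19565657-19573309, spanning an intron): gccagagccATGcagagccca
Thra (plus strand, chr11:98753577-98753597): ttgaagtgaATGgaacagaag

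A purine at the third base before the ATG and a G right after it are the main features of a strong start context. The purine was present in 9 of the 10 genes, against 86.9% of 11710 tested genes with an annotated transcript, and Thra was the exception with a T. A G after the ATG was present in 4 of the 10 genes, namely Lgals4, Bri3, Thra and Fam136a, against 53.8% of tested genes. Both features were present in 3 genes, against 45.9%. An ATG upstream of the start, within the 5′ UTR, was annotated for 6 of the 10 genes and for 50.8% of tested genes. Genes with a higher and with a lower TE in EpiLCs were found both with and without the G, and both with and without an upstream ATG. The part of start context and upstream ATGs in the TE changes was not tested.

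Since ESC microRNAs with the AAGUGC seed core act on translation and decay of their targets, the 3′ UTRs were searched for the hexamer GCACTT, which pairs with that core. By flow cytometry in the study, the miR-302 reporter was off in ESCs and on in EpiLCs, and the miR-290 reporter was on in both. A member of each of the clusters marked by the reporters is shown as RefSeq gives them on GRCm38.p6, with the seed in capitals.
mmu-miR-294-3p (plus strand, chr7:3220691-3220712): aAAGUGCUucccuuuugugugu
mmu-miR-302b-3p (plus strand, chr3:127545275-127545297): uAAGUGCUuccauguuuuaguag
Only Ptges3 and Thra held the hexamer on the sense strand of the annotated 3′ UTR, and it is in capitals below.
Ptges3 (chr10:128077177-128077204): ggaagctgtggGCACTTggcagcagcca
Thra (chr11:98765051-98765078): tcatcctaactGCACTTtggaaaccaag
The share of tested genes with this hexamer was 31.1%. The longer match AGCACTT, which contains the hexamer, was in 0 of the 10 genes and in 16.01% of tested genes. A gene with a higher TE and a gene with a lower TE in EpiLCs carried the hexamer, and 8 of the 10 carried none. The part of these sites in the TE changes was not tested.

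Across the 10 genes, total RNA changed by -0.62 to 0.75 on the log2 scale (EpiLC over ESC) and RPF by -1.76 to 2.00. None of the 10 passed both limits for total RNA, where the share of all tested genes was 24.3%, and 7 passed them for RPF (5 higher and 2 lower), against 26% of tested genes (15.4% higher and 10.6% lower). The RPF change was larger in size than the total RNA change in each of the 10. Total RNA and RPF moved in opposite directions in 6 genes (Ptges3, Lgals4, Rbms2, Npr1, Gemin7 and Thra), against 14.3% of tested genes. RPF levels of the 3 ESC and 3 EpiLC libraries did not overlap in any of the 10 genes, against 63.1% of tested genes, and total RNA levels did not overlap in 5, against 70.3%. TE did not overlap in any of them, against 20.2%, which the choice of these genes set beforehand. Choosing by the ratio of RPF to total RNA also bears on the other counts of this paragraph, so they are not findings about these genes.

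**Figure D1:**
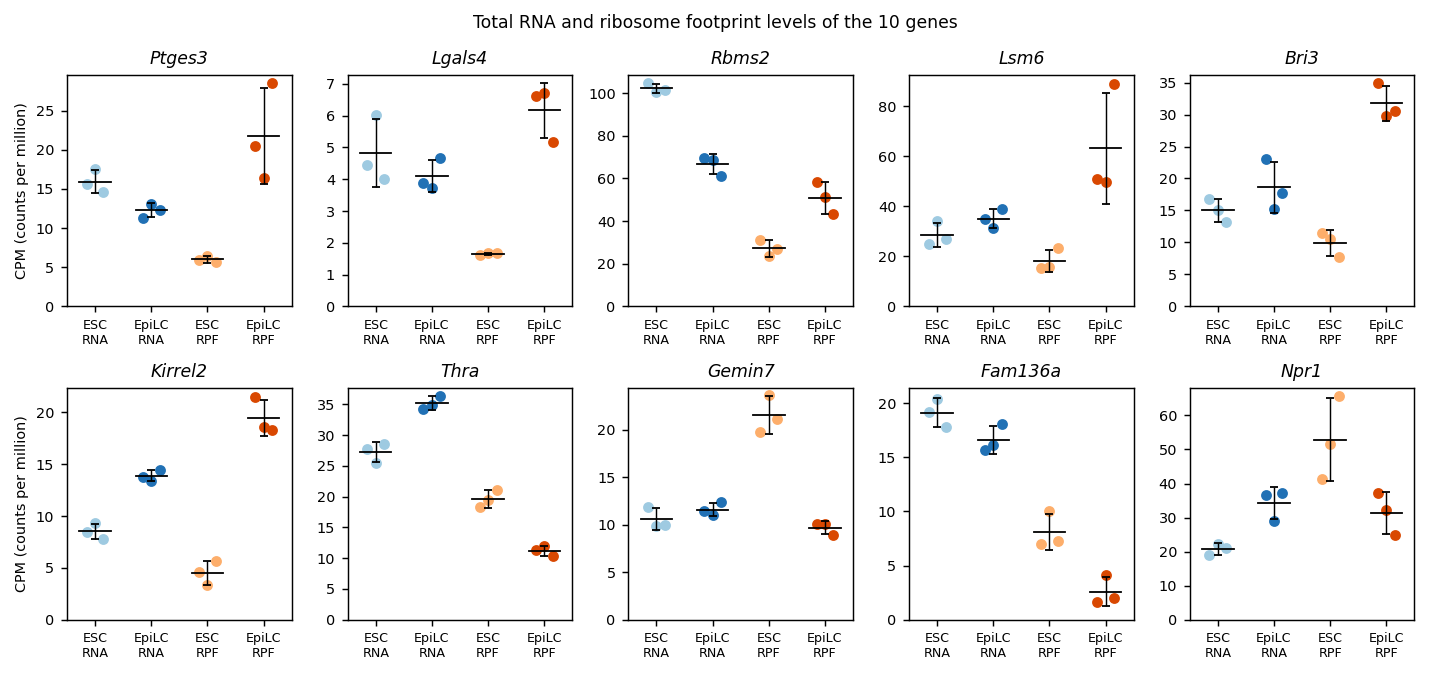
CPM of each gene (vertical axis, linear and starting at 0) in the 3 libraries of each group, with lines at the mean and bars of 1 SD. RPF points of ESCs and EpiLCs are apart in every panel, while total RNA points overlap for Lgals4, Lsm6, Bri3, Gemin7 and Fam136a.

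Ptges3 (chromosome 10, 128068715 to 128076086, plus strand), a cochaperone of HSP90 that is also named for prostaglandin E synthesis, had the largest TE shift of the 10. Its RPF levels were 5.96, 6.49 and 5.63 CPM in ESC replicates 1, 2 and 3 and 20.4, 16.4 and 28.4 CPM in EpiLCs. Its total RNA was 15.6, 17.6 and 14.6 CPM in ESCs and 11.3, 13.1 and 12.4 CPM in EpiLCs. RPF was thus higher in every EpiLC library while total RNA was lower in every one. On the log2 scale total RNA changed by -0.40 ± 0.15 (SE), RPF by 1.88 ± 0.22 and TE by 2.28 ± 0.27, a 4.87-fold higher TE. Its measured TE moved from percentile 8.80 among tested genes in ESCs to percentile 86.3 in EpiLCs. All 411 stretches of 28 nt that lie wholly in its counted coding sequence also occur in other genes. Reads with more than 1 place in the genome were dropped, so its counts and TE are uncertain, as set out below.

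Lgals4 (chromosome 7, 28834448 to 28841633, plus strand) is a galectin that binds β-galactoside sugars and is best known from gut epithelium. It had the lowest ESC RPF and the lowest total RNA of the 10 in CPM. Its ESC RPF libraries held 13, 8 and 19 counts, or 1.61, 1.67 and 1.67 CPM, and its EpiLC RPF libraries 32, 18 and 28 counts, or 6.61, 6.71 and 5.17 CPM. Total RNA was 4.45, 6.02 and 4.003 CPM in ESCs and 3.89, 3.72 and 4.66 CPM in EpiLCs, so these groups overlapped. The changes were -0.22 ± 0.23 for total RNA, 1.80 ± 0.36 for RPF and 2.02 ± 0.43 for TE on the log2 scale. These are the widest errors among the 6 genes with a higher TE, and the same-numbered pairs gave TE changes of 2.15, 2.64 and 1.35.

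Rbms2 (chromosome 10, 128133645 to 128176370, minus strand) encodes an RNA-binding protein of the family that binds single-stranded nucleic acid. Its total RNA was the highest of the 10 in CPM, which is not corrected for length. It was 105, 100.4 and 102 CPM in ESCs and 69.7, 68.8 and 61.2 CPM in EpiLCs. RPF went the other way, from 31.3, 23.7 and 26.8 CPM to 58.4, 51.1 and 43.2 CPM, with no overlap in either assay. Total RNA changed by -0.62 ± 0.08 and RPF by 0.84 ± 0.13, neither past the fold limit, while TE changed by 1.46 ± 0.16 on the log2 scale. Its TE stood at percentile 3.63 in ESCs and 35.5 in EpiLCs, so an mRNA with few ribosomes for its amount moved toward the middle of the range.

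Lsm6 (chromosome 8, 78808211 to 78813024, minus strand) is a subunit of the ring of LSm proteins that acts with decapping in the cytoplasm and of the nuclear ring on U6 RNA. Its RPF was 15.5, 15.9 and 23.2 CPM in ESCs and 51.0, 49.6 and 88.9 CPM in EpiLCs, where replicate 3 stood well above the other two. Total RNA was 25.1, 33.9 and 26.7 CPM in ESCs and 34.9, 31.3 and 38.8 CPM in EpiLCs, with overlap. The TE change of 1.41 ± 0.26 on the log2 scale came with changes of 0.32 ± 0.16 for total RNA and 1.73 ± 0.21 for RPF. Without EpiLC RPF replicate 3 the TE change was 1.09. Per kilobase of counted sequence Lsm6 was the highest of the 10, with a mean EpiLC RPF of 319 CPM per kb against 6.59 CPM per kb for Lgals4. Of the 28-nt stretches that start in counted Lsm6 sequence, 72.7% also occur in other genes, so its counts are uncertain too.

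Bri3 (chromosome 5, 144244531 to 144264141, plus strand), a small membrane protein, had RPF levels of 11.5, 10.5 and 7.66 CPM in ESCs and 34.9, 29.8 and 30.5 CPM in EpiLCs. Its total RNA was 16.8, 15.1 and 13.1 CPM in ESCs and 23.0, 15.2 and 17.7 CPM in EpiLCs. EpiLC RPF was about level across replicates, and EpiLC total RNA overlapped with ESCs through replicate 2. Total RNA changed by 0.37 ± 0.15, RPF by 1.73 ± 0.20 and TE by 1.37 ± 0.25 on the log2 scale. With a correction for GC content, which at 65.1% of coding bases was higher in Bri3 than in the other 9 genes, its total RNA change was 0.04 and its RPF change 1.36.

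Kirrel2 (chromosome 7, 30448119 to 30456804, minus strand) encodes an adhesion molecule of the nephrin family, first known from kidney podocytes and pancreas. Its total RNA was higher in every EpiLC library, going from 8.46, 9.29 and 7.83 CPM to 13.8, 13.4 and 14.5 CPM. Its RPF went further in the same direction, from 4.59, 3.35 and 5.63 CPM to 21.5, 18.6 and 18.3 CPM. On the log2 scale the changes were 0.71 ± 0.15 for total RNA and 2.00 ± 0.23 for RPF, the highest RPF change of the 10, and 1.29 ± 0.27 for TE. Kirrel2 thus differed in the same direction in both assays, by unequal amounts.

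Npr1 (chromosome 3, 90451120 to 90465458, minus strand), the receptor guanylyl cyclase for natriuretic peptides, had the lowest TE change of the 10. Its RPF was 41.3, 51.5 and 65.8 CPM in ESCs and 37.2, 32.1 and 24.8 CPM in EpiLCs. Its total RNA was 18.9, 22.2 and 21.1 CPM in ESCs and 36.5, 28.9 and 37.3 CPM in EpiLCs. The 2 assays thus separated the cell types in opposite directions, by -0.82 ± 0.18 for RPF and 0.75 ± 0.16 for total RNA on the log2 scale. TE changed by -1.58 ± 0.24, from percentile 96.9 to 46.7, so an mRNA among the most ribosome-loaded of ESCs stood near the middle in EpiLCs. Replicate 3 had both the highest ESC and the lowest EpiLC RPF, and its TE change of -2.26 was larger in size than the -1.13 and -1.08 of replicates 1 and 2.

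Fam136a (chromosome 6, 86365778 to 86368919, plus strand), a mitochondrial protein, had the fewest RPF reads of the 10 in EpiLCs. Its RPF counts were 56, 48 and 83 in ESCs and 8, 11 and 11 in EpiLCs, which is 6.95, 10.05 and 7.31 against 1.65, 4.10 and 2.03 CPM. Total RNA was 19.2, 20.4 and 17.8 CPM in ESCs and 15.6, 16.2 and 18.1 CPM in EpiLCs, with overlap. Changes were -0.21 ± 0.13 for total RNA, -1.76 ± 0.37 for RPF and -1.55 ± 0.39 for TE on the log2 scale. Of the 28-nt stretches that start in counted Fam136a sequence, 75.3% also occur in other genes, so its counts are uncertain too. Fam136a was the gene nearest to the p limit of the choice, with an adjusted p of 0.0488 in limma, and the first gene beyond that limit was Zscan4d at 0.0541. With a library left out it passed both limits in 2 of 12 fits, and it did so in 5 of 9 other settings. At the fold limit, the nearest genes were Lmtk3 inside, with -1.01, and Gabbr1 outside, with 0.96, neither of them among the 10.

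Gemin7 (chromosome 7, 19565279 to 19565623, minus strand) belongs to the SMN complex, which loads Sm rings onto spliceosomal RNAs. Its total RNA groups overlapped, at 11.9, 9.81 and 10.01 CPM in ESCs and 11.4, 10.99 and 12.4 CPM in EpiLCs. Its RPF was 19.7, 23.7 and 21.1 CPM in ESCs and 10.1, 10.1 and 8.87 CPM in EpiLCs, well apart. The log2 changes were 0.13 ± 0.15 for total RNA, -1.16 ± 0.19 for RPF and -1.29 ± 0.24 for TE, so nearly the whole shift lay in RPF.

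Thra (chromosome 11, 98753631 to 98768525, plus strand), thyroid hormone receptor alpha, had RPF levels of 18.2, 19.5 and 21.1 CPM in ESCs and 11.4, 11.9 and 10.3 CPM in EpiLCs. Total RNA was 27.7, 25.5 and 28.5 CPM in ESCs and 34.2, 34.9 and 36.4 CPM in EpiLCs, again without overlap and in the opposite direction. Total RNA changed by 0.37 ± 0.10, RPF by -0.86 ± 0.18 and TE by -1.22 ± 0.21 on the log2 scale. Its TE was already low in ESCs, at percentile 32.9, and was at percentile 6.14 in EpiLCs. The counted sequence of 1557 nt was longer than the 1188 nt that its main annotated transcript would give, so more than a single isoform entered its values.

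**Figure D2:**
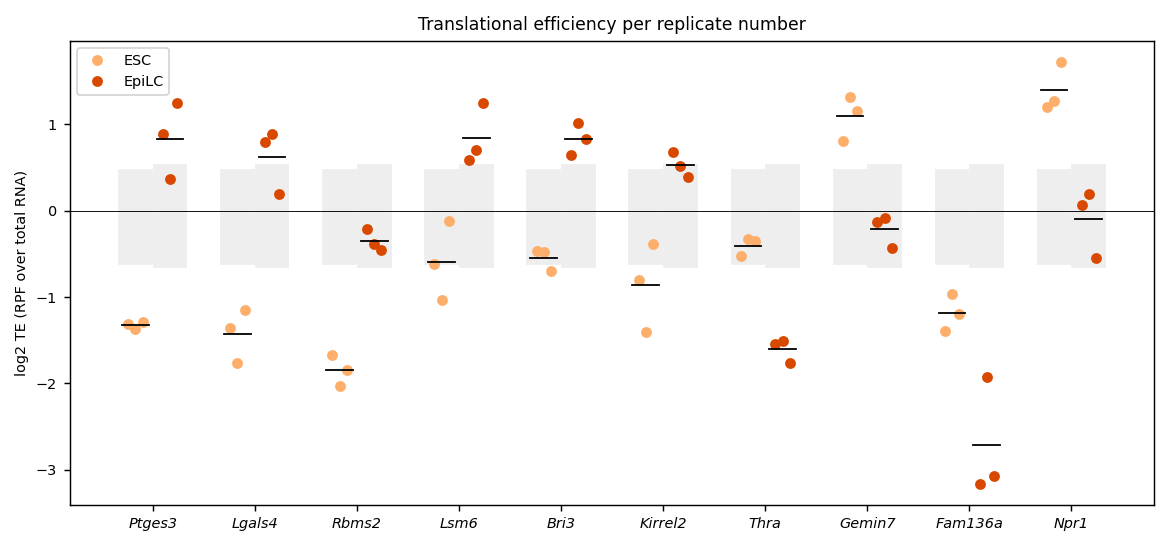
Log2 TE of each gene (vertical axis), computed for RPF and total RNA libraries of the same number, with 3 points and a mean line per cell type. Grey boxes hold the middle 50% of tested genes, from -0.62 to 0.47 in ESCs and from -0.65 to 0.52 in EpiLCs, and the points of both cell types are apart for each gene.

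The place of the genes in the TE range differed among them. Gemin7 and Npr1 left the upper end of the range (log2 TE of 1.09 and 1.39 in ESCs) for near its middle (-0.22 and -0.10). Thra and Fam136a started below the middle and ended at -1.60 and -2.72, with Fam136a at percentile 0.98 in EpiLCs. Ptges3, Lgals4, Lsm6, Bri3 and Kirrel2 crossed from negative to positive values, while Rbms2 went from -1.85 to -0.35 and stayed negative.

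**Figure D3:**
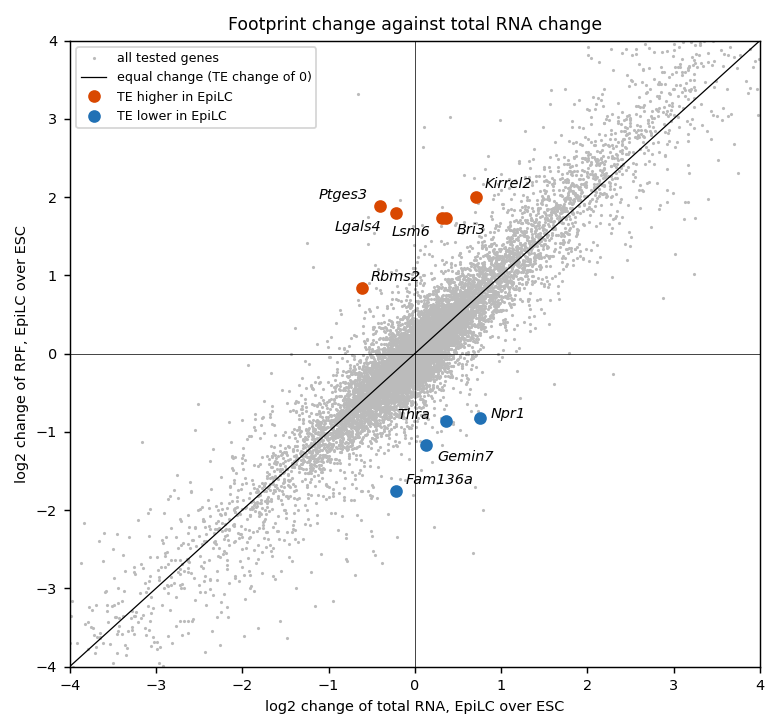
Log2 change of RPF (vertical axis) against that of total RNA (horizontal axis), EpiLC over ESC, for 11750 tested genes in grey, with the 10 genes in colour and the line of equal change in black. Points beyond 4 on either axis are not drawn, and the 10 genes stand off the line at total RNA changes between -0.62 and 0.75.

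The counted sequence of the 10 genes ran from 198 nt in Lsm6 to 3129 nt in Npr1, with a median of 687 nt against 1437 nt for tested genes. In 5 of them (Lsm6, Gemin7, Fam136a, Bri3 and Ptges3) it was under 500 nt, against 8.30% of tested genes, while Thra, Kirrel2 and Npr1 were above the median of tested genes. Among tested genes under 500 nt, 8 of 975 (0.821%) passed both limits for TE, and among longer genes 22 of 10775 (0.204%). The 8 include these 5 genes and the 22 the rest of the 10, all chosen by their TE change, so these shares are no independent background for them. The SE of the TE change had a median of 0.24 in the shorter and 0.19 in the longer genes. GC content of the coding sequence ran from 38.5% in Ptges3, which put it at percentile 0.85, to 65.1% in Bri3, around a median of 53.2% for tested genes.

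Of the 10 genes, 5 shared sequence with other genes, mostly pseudogenes. Reads with more than 1 place in the genome were dropped before counting, so windows of read length that occur in another annotated gene bear on how much of a gene could be counted. For Ptges3, 411 of the 438 windows of 28 nt that start in its counted sequence (93.8%) had an exact copy in another gene, 408 of them in Ptges3-ps and 193 in Gm11893, both processed pseudogenes. All 411 windows that lie wholly in its coding sequence were shared, and the other 27 windows reach past the stop codon. The share was 75.3% for Fam136a (224 windows in Gm45224), 72.7% for Lsm6 (106 in Gm12571, a processed pseudogene, and 38 in the protein-coding gene Zfp410), 30.03% for Bri3 (Gm13392) and 22.2% for Rbms2 (Gm6032). The other 5 genes shared no window. Windows were taken from the main annotated transcript, which gives 333 of them for Bri3 against 418 counted nt and 1188 for Thra against 1557, so these shares do not cover all that was counted in those 2 genes. With windows of 32 nt, the least length of a total RNA read, the shares were 92.9%, 69.6%, 66.7%, 28.8% and 18.5%. RPF reads were 26 to 32 nt and total RNA reads 32 nt or more, so unequal parts of these genes could be counted in the 2 assays, and counts of Ptges3, Fam136a and Lsm6 are uncertain on this ground.

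**Figure D4:**
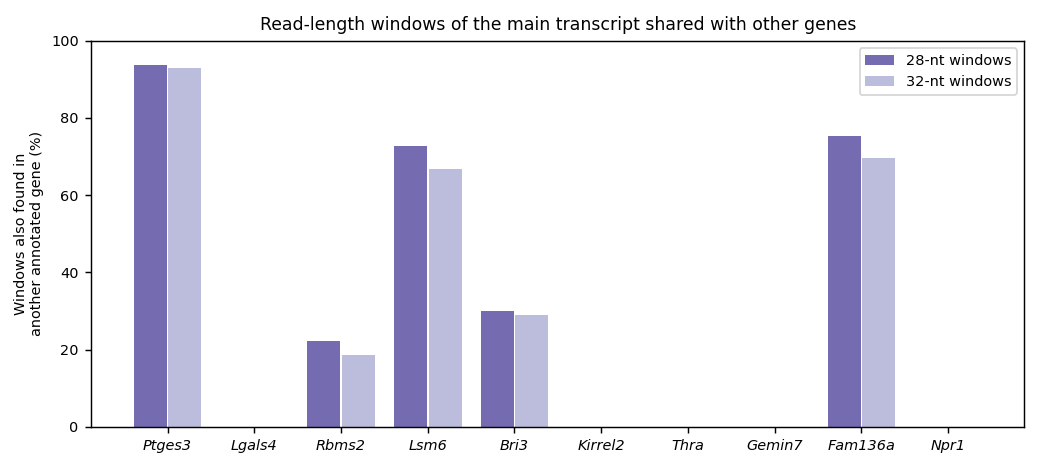
Percent of read-length windows starting in the counted sequence of each gene (vertical axis), as given by its main annotated transcript, that occur exactly in another gene annotated in Gencode M21, for windows of 28 and 32 nt. For Bri3 and Thra this transcript covers only part of the counted sequence. Ptges3, Fam136a and Lsm6 are above 65% at both lengths, and Lgals4, Kirrel2, Thra, Gemin7 and Npr1 are at 0.

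Shared windows were found in 29.1% of tested genes, and 5.47% shared over 50% of their windows. Of 641 genes that shared over 50%, 8 (1.25%) passed both limits for TE, against 22 of 11069 others (0.199%). The 8 include Ptges3, Fam136a and Lsm6, and the 22 include the rest of the genes chosen by their TE change. Unannotated copies in the genome were not searched. The part of shared sequence in the TE values was not tested.

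Genes of the same complexes, families or pathways as the 10, here called partners, were then examined, with no list for Bri3 and Fam136a. The TE values of the partners were not used to choose the 10, but the lists were drawn up with earlier results of these data known. The 7 lists held 161 partners by name, of which 126 were tested, and limma with Benjamini-Hochberg adjustment over 11750 genes gave 0 past both limits for TE. An unadjusted p below 0.05 was found for 22 of the 126 (17.5%), against 13.9% of all tested genes, and edgeR's quasi-likelihood test called 1 (lower) and DESeq2 called 2 (1 higher and 1 lower). TE changes of the partners had a median of -0.03, and those of all tested genes a median of 0.01, in log2 units. For total RNA, 11 of the 126 partners were higher and 7 lower in EpiLCs, where 14.6% of all tested genes were higher and 9.7% lower. For RPF, 13 were higher and 8 lower, against 15.4% and 10.6% of all tested genes. The same shares are the background for the counts of each list below.

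**Figure D5:**
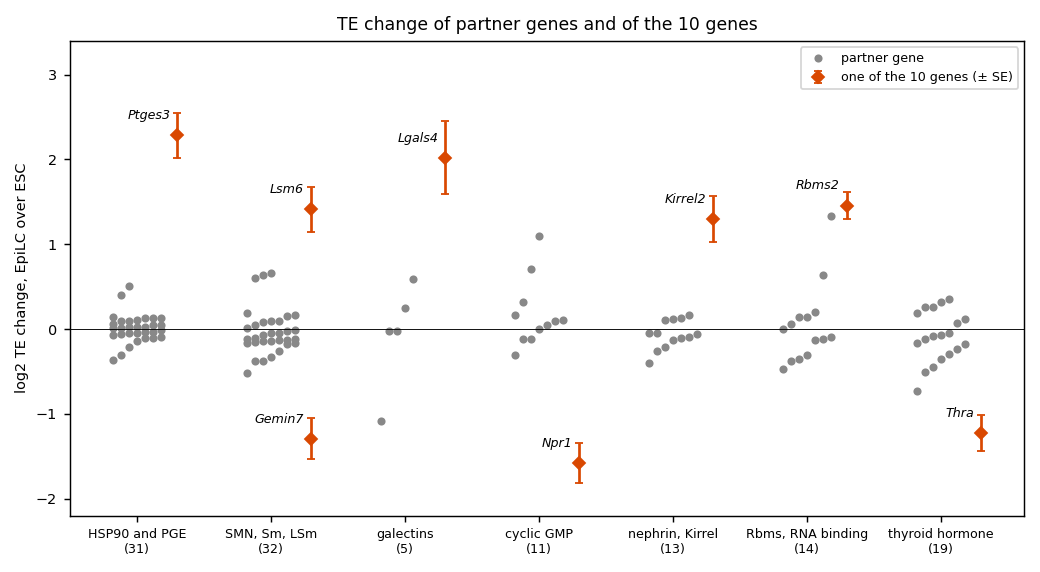
Log2 TE change, EpiLC over ESC (vertical axis), of partner genes in 7 lists (grey, number drawn below each name) and of the 8 listed genes that have such a list (diamonds with SE). The 125 partners drawn lie between -1.09 (Lgals3) and 1.33 (Zfp36), and 0 passed both limits in limma.

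Of 31 chaperone and prostaglandin partners of Ptges3, 1 rose and 1 fell in both assays. Bag2, a cochaperone of HSP70, rose by 1.82 ± 0.21 in total RNA (limma adjusted p 3.77e-08) and by 2.33 ± 0.26 in RPF (adjusted p 3.07e-08). Ptges, the inducible prostaglandin E synthase, fell by 3.25 and 3.35 on the log2 scale (adjusted p 1.19e-06 and 8.12e-07). Their TE changes were 0.51 ± 0.33 and -0.10 ± 0.65. TE changes over the list were between -0.36 and 0.51 on the log2 scale. The 2.28 of Ptges3 is no fair contrast, since Ptges3 was chosen by its TE change.

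Gemin7 and Lsm6, with opposite TE shifts, share a list of 32 tested SMN, Sm and LSm genes. Snrpn, an Sm protein closely related to Snrpb, shared 37.2% of its 28-nt windows with other genes. It rose by 1.13 ± 0.11 in total RNA (limma adjusted p 1.10e-09) and by 1.77 ± 0.24 in RPF (adjusted p 7.26e-07), and 0 genes of the list fell past the limits in either assay. Its TE change was 0.64 ± 0.26. Coil, the scaffold of Cajal bodies, was named after its values were seen. Its TE change of 0.60 ± 0.13 passed the p limit (adjusted p 0.0243) but not the fold limit. TE changes over the list lay between -0.52 and 0.66.

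Among 5 tested galectins, 3 fell in total RNA and in RPF and 0 rose past the limits, where 9.7% and 10.6% of all tested genes fell. Lgals3 fell by 1.91 ± 0.17 in total RNA and by 3.00 ± 0.28 in RPF (limma adjusted p 2.31e-10 and 1.86e-09). Its TE change was -1.09 ± 0.33 (adjusted p 0.0994), and it passed the limits in edgeR (adjusted p 0.0425) and DESeq2 (adjusted p 0.0258). Lgals7 had 18, 15 and 15 counts in ESC total RNA and 0 in each EpiLC library, at least 3.78-fold lower against a floor of 3 counts per library. In RPF it was at least 6.43-fold lower.

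Of 11 tested genes of cyclic GMP signalling around Npr1, 3 rose and 1 fell in total RNA, and 4 rose and 1 fell in RPF. Pde5a, which breaks down cyclic GMP, rose from 6.93 ± 2.34 to 34.6 ± 0.924 CPM in total RNA (SD, n = 3 per group), a log2 change of 2.40 ± 0.18 (limma adjusted p 2.16e-11). Its RPF change was 2.49 ± 0.25 and its TE change 0.09 ± 0.31. Gucy1b1, a subunit of soluble guanylyl cyclase, rose by 2.88 ± 0.50 in total RNA (adjusted p 1.66e-05) from 6, 12 and 4 counts in ESCs. The list had TE changes from -0.31 to 1.09. The -1.58 of Npr1 is no fair contrast, since Npr1 was also chosen by its TE change.

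In the list around Kirrel2, 2 of 13 tested genes rose in total RNA and 3 in RPF, and 0 fell. Podxl, a sialomucin of podocytes that epiblast cells also express, rose from 24.0 ± 4.19 to 210.2 ± 21.7 CPM in RPF (limma adjusted p 5.33e-15) and had a TE change of 0.10 ± 0.22. Magi2, a scaffold protein, rose by 4.38 ± 0.45 in total RNA and by 4.33 ± 0.58 in RPF (adjusted p 5.20e-09 and 5.46e-07), with ESC RPF counts of 5, 1 and 3. TE changes here were the narrowest of the 7 lists, from -0.40 to 0.16.

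Around Rbms2, 1 of 14 tested genes passed both limits. Zfp36, which binds AU-rich elements and promotes decay, rose by 2.30 ± 0.37 in total RNA (limma adjusted p 5.59e-06) and by 3.63 ± 0.29 in RPF (adjusted p 8.29e-11). Its TE change of 1.33 ± 0.47 had an adjusted p of 0.171 in limma and of 0.0432 in DESeq2. Pabpc1, the poly(A)-binding protein, was named after its values were seen. It had a TE change of 0.64 ± 0.10 with an adjusted p of 0.00066, under the fold limit, from an RPF change of 0.60 and a total RNA change of -0.04, and it shared 53.9% of its 28-nt windows with other genes.

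For the thyroid hormone pathway around Thra, 3 of 20 tested genes rose and 2 fell in total RNA, and 3 rose and 3 fell in RPF. Dio3, which inactivates thyroid hormone, fell by 2.63 ± 0.26 in total RNA and by 2.79 ± 0.40 in RPF (limma adjusted p 3.72e-09 and 1.64e-06), with a TE change of -0.16 ± 0.48.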

How the data were processed

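Ribosome profiling and total RNA libraries of ESCs and EpiLCs (4 groups of 3, grouped and numbered by their titles) were analysed from 1 table of 22462 genes. The authors deposited raw counts per gene, not normalized. Per the labels and the study's methods, cutadapt (version 1.14) removed adapters, RPF reads of 26 to 32 nt and total RNA reads of at least 32 nt were aligned by STAR (version 2.5.3a) to mm10 with Gencode M14, reads with more than 1 mapping position were dropped, and featureCounts version 1.5.3 counted 5′ ends on the sense strand over coding sequence without its first 45 nt. The treatment of PCR duplicates is not given in the sources used here, and precision judged from read counts alone covers counting error only. The SEs of changes come from the limma fit and include the spread between libraries of a group. The deposited counted length is another column of that table. No column of per-sample values lacked a sample.

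Here, CPM are counts over the library total. Gene symbols were matched for 22385 genes. Genes with at least 3 CPM in at least 3 libraries (11750) were scaled with TMM factors (edgeR version 4.0.16) and fitted with voom and limma (version 3.58.1, under R 4.3.3), with 4 groups as levels and no replicate block. The interaction of assay and cell type is the TE change. Benjamini-Hochberg adjustment ran over these genes, and both limits mean an adjusted p below 0.05 and an absolute log2 change above 1. All changes are EpiLC over ESC. TE per replicate used log2 CPM with a prior count of 0.5. The fits were also run on simulated data, and the outcome is not given here.

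The 10 genes and the partner lists were chosen with earlier results of these data known. Named were the 10 genes, partners past both limits for TE, the 2 partners per list with the largest change among those past both limits for total RNA or RPF, the gene most like each of the 10, and the genes nearest to the limits. A partner that meets this rule is not reported here. Start contexts, UTRs, GC content and shared windows came from Gencode M21 transcripts (a newer release than that of the counts) for 11710 tested genes. Protein sequences were not used here. Alternatives were edgeR's quasi-likelihood test, DESeq2 version 1.42.0, 2 other scalings, 2 other filters, replicate blocks, a GC correction and leaving out each library.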

Additional observations from a re-analysis of the deposited data

How the results depend on the processing

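With voom and limma, 16 genes were higher and 14 lower for TE among 11750. DESeq2 gave 32 and 24, the replicate block 30 and 23, and the GC correction with the replicate block 37 and 23. Leaving out a library gave 13 to 38 higher, the most without ESC total RNA replicate 1, and 6 to 22 lower, with 22 without ESC RPF replicate 3. Counts of 9 or fewer lower genes came without ESC RPF replicate 2, EpiLC RPF replicates 2 and 3, ESC total RNA replicates 2 and 3, and EpiLC total RNA replicates 1 and 2. For total RNA (1712 and 1140), testing every gene that had a read gave 2685 higher and 1756 lower, and a minimum of 10 counts in each of the libraries gave 967 and 628. For RPF (1815 and 1244) every gene with a read gave 2647 and 1698, and the stricter filter 1095 and 674. These filters change the number of genes tested.

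Among partners, DESeq2 called 1 higher (Zfp36) and 1 lower (Lgals3) for TE, edgeR 1 lower, and the GC correction with the replicate block 1 lower, against 0 and 0 in limma. Leaving out a library gave 0 to 1 higher. Partners higher in total RNA were 19 with every gene with a count (11 with the CPM filter), and those higher in RPF were 19 (13). With at least 10 counts in every library, 4 were lower in total RNA (7) and 5 in RPF (8).

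The TE changes of the 10 genes had the same sign in every setting tried. All but Fam136a also passed both limits in every setting that kept them, while Fam136a lost the call with median ratio scaling, total counts only, every gene with a count and a block by culture, which ties RPF to total RNA of one number, and in 10 of 12 fits without a library. Lgals4 and Fam136a were not tested at 10 counts in every library. Of 694 recomputed values of the 10 genes, 683 moved by less than the spread between replicates and 0 changed sign. These settings refit the same counts by which the genes were chosen, so kept signs and calls are no independent support.

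Over all tested genes, deviations of same-numbered libraries were weakly correlated. The correlation was 0.02 to 0.04 for ESC and EpiLC RPF and -0.01 to 0.03 for total RNA. It was -0.18 to 0.08 for RPF and total RNA of ESCs and 0.02 to 0.16 for those of EpiLCs. The study calls its total RNA matched to the RPFs, but the labels do not say that libraries of one number share a culture. The tests follow the study's model of assay and cell type and do not use the replicate numbers as pairs. With RPF tied to total RNA by number (the block by culture), 19 genes were higher and 13 lower for TE. With the replicate block they were 30 and 23, against 16 and 14 with no block. TE per replicate joins RPF and total RNA by number as a description. With the replicate block the partners called for total RNA were 12 higher and 7 lower. Depth limits RPF of low genes most, and 3 counts equal 1.12 CPM in the shallowest library.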

Other observations

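For each of the 10 genes, the tested gene with the most similar log2 CPM over the 12 libraries was found by Pearson's r, which describes 12 points in 4 groups and carries no test. Lgals4 was most like Acan, the cartilage proteoglycan aggrecan, with r = 0.940, and Acan had a TE change of 0.90 ± 0.17 (SE, log2, EpiLC over ESC). Bri3 was most like Sorcs2, a sorting receptor, with r = 0.938 and a TE change of 1.25 ± 0.33. Kirrel2 was most like Uprt, with r = 0.984 and a TE change of 1.03 ± 0.44. Lsm6 was most like Atf3, a stress-induced transcription factor, with r = 0.962 and a TE change of 0.85 ± 0.30.

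The likeness was measured on the same libraries that give TE, so a TE change of the same sign was built in. Ptges3 was most like the splicing factor gene Srsf5 (r = 0.892), whose TE change was 0.42 ± 0.11 against 2.28. Rbms2 was most like Nop53 (r = 0.936), with a TE change of 0.26 ± 0.09. Npr1 was most like the kinase gene Cdk9 (r = 0.861), with -0.35 ± 0.12. Gemin7 was most like Nmd3 (r = 0.916), with -0.39 ± 0.09, Thra was most like Gls2 (r = 0.966), with -0.41 ± 0.14, and Fam136a was most like Mtrr (r = 0.982), with -0.59 ± 0.14.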
